A study of Mus musculus with 46 samples.

Results

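The mitochondrially encoded genes are the transcripts of the small circular genome inside mitochondria, and were taken here as every gene whose symbol in the deposited count files starts with mt-. They numbered 37 of 57010 genes, with 13 protein genes, 2 rRNA genes and 22 tRNA genes, and each was present in every file. The choice used symbols and no measured value. Total RNA was sequenced from 22 heart and 24 striatum libraries of adult mice, made with the CORALL V2 kit, to ask how a deletion of 1 nucleotide at the hairless gene (Hr), the HrDR5 allele, alters responses to thyroid hormone (TH). Mutant mice carried HrDR5 on both chromosomes (HrDR5/DR5) and were set against wild-type (WT) mice. Mice of each genotype were untreated, fed propylthiouracil (PTU), a blocker of thyroid hormone synthesis, in low-iodine food for 15 days, or fed PTU and then given TH for 24 hours (PTU+TH). Each of the 12 groups held 4 libraries, except that mutant untreated and mutant PTU hearts held 3 each. For heart mutant PTU+TH replicate 1 the label lacks the 24 hours of TH and names 15 days alone, and that library stayed in its labelled group. No label ties a replicate to an animal, strain, age in days or sex, so p-values measure only the spread between these libraries.

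The mitochondrial genome encodes core subunits of 4 enzymes of the inner membrane, complexes I, III and IV of the respiratory chain and complex V, the ATP synthase. The rRNAs and tRNAs it encodes serve the ribosomes that translate those subunits inside the organelle, while the remaining subunits and all of the expression machinery are imported from the cytoplasm. Both strands are transcribed into long precursors in which tRNAs separate most protein and rRNA genes, and cutting at the tRNAs releases the individual RNAs. Most genes are read from the same strand, while mt-Nd6 and a minority of the tRNAs are read from the opposite one. Heart muscle is dense in mitochondria, and thyroid hormone is known to act on both nuclear genes for mitochondrial proteins and mitochondrial content.

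Some mitochondrial genes share sequence with nuclear copies or with each other, and examples are given first because such bases bear on how counts can be read. Transcripts were taken from GENCODE release M21 on GRCm38, which held all 37 gene identifiers. The files were made on GRCm39, so no coordinates are given. A run of 7 pseudogenes on chromosome 1 (Gm28439, Gm10222, Gm28438, Gm28437, Gm10925, Gm28661 and Gm29216) copies neighbouring mitochondrial genes at 99.7% to 100% identity. The first 63 bases of mt-Nd3, a complex I subunit, are shown with those of its copy Gm28438, and the capital marks T3C, their single difference over 345 aligned bases, counted from the 5′ end of mt-Nd3.
mt-Nd3: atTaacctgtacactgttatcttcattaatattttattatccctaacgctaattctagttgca
Gm28438: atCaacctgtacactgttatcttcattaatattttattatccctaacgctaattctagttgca
A stretch of mt-Nd4, bases 817 to 936, shows where a copy stops, since Gm28439 matches mt-Nd4 without a mismatch up to base 876. Capitals mark the last 60 copied bases.
mt-Nd4: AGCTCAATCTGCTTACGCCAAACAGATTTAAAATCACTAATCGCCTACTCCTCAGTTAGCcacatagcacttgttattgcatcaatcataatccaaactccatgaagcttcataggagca
Neighbouring genes also share bases with each other. The whole of mt-Ti, the isoleucine tRNA, is shown because its counts differed between genotypes, and of mt-Tq, the glutamine tRNA, because it is read from the opposite strand beside it. In mt-Ti, capitals mark 2 bases shared with mt-Nd1 at the start and 3 shared with mt-Tq at the end. In mt-Tq they mark the same 3 bases.
mt-Ti: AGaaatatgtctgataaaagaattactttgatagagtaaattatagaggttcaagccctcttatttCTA
mt-Tq: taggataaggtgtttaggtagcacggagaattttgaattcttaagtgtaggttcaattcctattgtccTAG
The ends of mt-Nd5 (bases 1765 to 1824) and mt-Nd6 (bases 460 to 519), both complex I subunits, overlap on opposite strands by 14 bases, in capitals. They are the genes that stood apart in 1 heart library.
mt-Nd5: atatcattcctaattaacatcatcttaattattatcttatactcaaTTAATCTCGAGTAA
mt-Nd6: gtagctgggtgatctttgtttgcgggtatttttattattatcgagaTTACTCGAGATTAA

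Heart libraries held 3.27 to 19.53 M gene counts (M, counts in units of 1e+06), with mutant untreated replicate 2 the lowest, and striatum libraries 9.47 to 13.66 M. Reads that aligned to more than 1 place are listed on their own line of the files, at 23.1% to 35.9% of all lines in heart and 12.9% to 17.3% in striatum. The tissue labels held: a heart muscle list summed to 34906 to 97926 CPM, that is counts per 1e+06 gene counts, in heart and 71.2 to 183 in striatum, and a striatal projection neuron list to 9.06 to 20.4 in heart and 4824 to 8513 in striatum. A deletion of 1 base cannot be read from counts per gene, so the genotype labels were not checked here. All heart libraries and all striatum libraries differ in tissue and possibly in library preparation, which cannot be told apart.

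Transcripts of 6 protein genes, mt-Nd1, mt-Cytb, mt-Co1, mt-Nd2, mt-Nd5 and mt-Nd4, stood highest per base in heart, while 5 others were close to absent from the counts. Summed over the 22 heart libraries, the mt- genes took 97.2 M counts, and over the 24 striatum libraries 34.7 M. Per base of transcript, mt-Nd1 stood highest, at 17862 counts in heart and 5763 in striatum, followed by mt-Cytb, the complex III subunit, at 16680 and 5399. mt-Co1, the catalytic subunit of complex IV, had 13537 counts per base in heart and 4513 in striatum, and mt-Nd2 of complex I had 10759 and 3587. mt-Nd5 had 7151 counts per base in heart and 2181 in striatum, and mt-Nd4 had 6546 and 1993. The order of these 6 genes was the same in both tissues. The rRNA of the large ribosomal subunit, mt-Rnr2, had 2732 counts per base in heart and 1928 in striatum, and that of the small subunit, mt-Rnr1, had 1895 and 2147. The order of the rRNAs was therefore opposite in the tissues.

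The protein genes close to absent were mt-Co2 and mt-Co3 of complex IV, mt-Atp6 and mt-Atp8 of complex V, and mt-Nd4l of complex I. mt-Atp6 had 1406 counts over all heart libraries and 134 over all striatum libraries, or 2.06 and 0.197 counts per base. mt-Co2 had 1.94 counts per base in heart and 0.149 in striatum, and mt-Co3 had 1.39 and 0.110. mt-Atp8 and mt-Nd4l had 1.12 and 0.714 counts per base in heart, and 0.123 and 0.0842 in striatum. All 5 are read from the same strand as mt-Nd1.

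4 of these 5 genes have near-identical copies. Of the 50-base windows of mt-Co2, 0% occurred in no other annotated transcript, and for mt-Co3 the share was 0.136%, for mt-Atp6 0.475% and for mt-Nd4l 1.21%. Of mt-Nd4 it was 37.8% and of mt-Co1 48.9%, and mt-Nd3 with 2.01% had 546 counts per base in heart and 440 in striatum. The other 6 protein genes and the rRNAs ran from 91.8% to 100%. For mt-Atp8, which was also close to absent, the share was 100%. Near-absent counts and windows shared with annotated transcripts were found together in 4 genes, and not in mt-Nd3 or mt-Atp8. In heart mt-Nd3 lay far below the 17862 counts per base of mt-Nd1. Windows were compared with annotated transcripts alone, so a copy of mt-Atp8 outside them would not be seen. mt-Atp8 lies between mt-Co2 and mt-Atp6, whose copies Gm28661 and Gm10925 are neighbours on chromosome 1. The part of the copies in the counts was not tested. The chromosome 1 copies took 290 (Gm28438) to 1772 (Gm29216) counts in all hearts. Of the near-absent genes, mt-Nd4l had 212 counts in heart and 25 in striatum, fewer than its copy Gm10222 with 1321 and 552. mt-Co2 had 1328 and 102, against 671 and 123 for Gm28661. mt-Atp6 had 1406 and 134, against 620 and 269 for Gm10925. mt-Co3 had 1092 and 86, against 617 and 119 for Gm28437. More distant copies elsewhere took more, led by Gm13340 (97.6% identical to mt-Co1) with 36641 counts in all hearts, Gm13341 (95.9%, mt-Co2) with 12745, Gm4076 (95.2%, mt-Nd5) with 8831 and Gm11410 (92.9%, mt-Cytb) with 4961. Reads that match a gene and its copy equally well are set aside under HTSeq's usual setting. The setting used is not given in the sources used here, so the counts of these genes are uncertain as levels of their RNA. Counts of complex IV came almost wholly from mt-Co1, and complex V had close to none.

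Among the 22 tRNA genes, mt-Tk for lysine and mt-Tg for glycine had 0 counts in all 46 libraries, which allows up to 0.000207% of mt- counts in any heart library and 0.000306% in any striatum library, counting error only. mt-Tn, mt-Ty, mt-Ts1, mt-Td and mt-Th had at most 4 counts in any library. From mt-Ts1 to mt-Tg, 8 genes next to each other in the genome were at or near 0. mt-Tr, which lies between mt-Nd3 and mt-Nd4l, had 18621 counts in heart and 19991 in striatum. Other tRNAs differed by tissue. mt-Tf, the phenylalanine tRNA, had 14.6 counts per base in heart and 224 in striatum, mt-Ta 9.77 and 106, and mt-Tc 1.41 and 47.5, whereas mt-Tw for tryptophan had 211 in heart and 25.7 in striatum and mt-Ti 489 and 139.

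**Figure D1:**
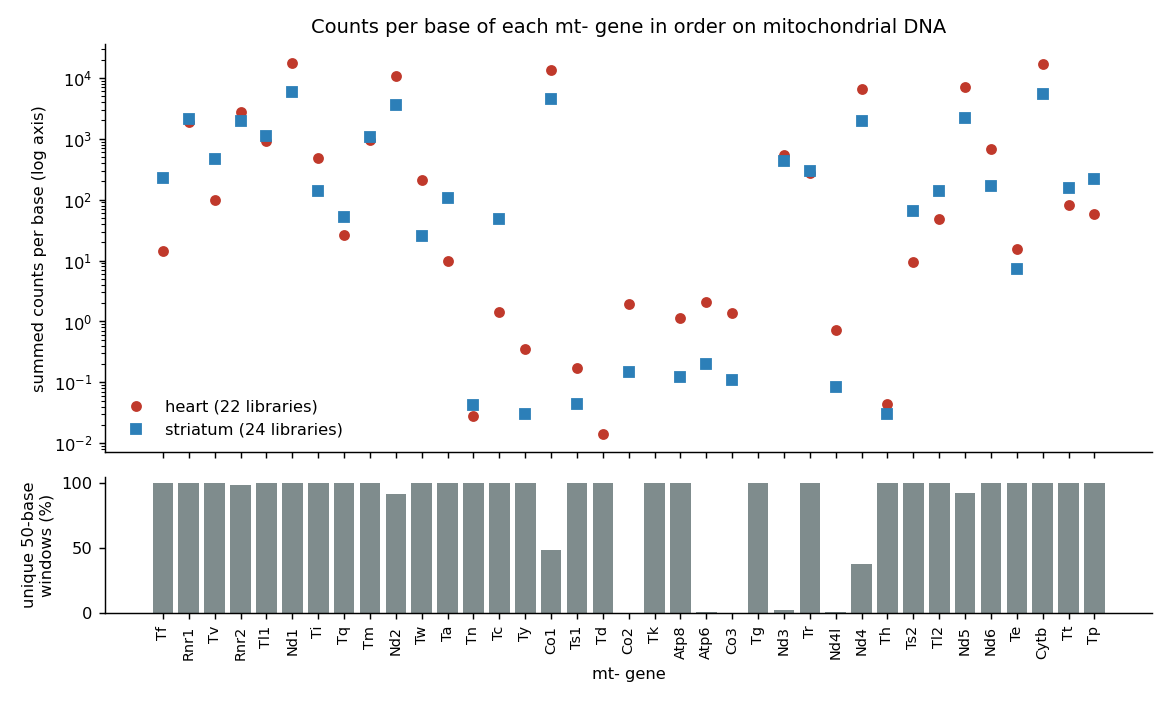
Counts per base of transcript for each of the 37 mt- genes (upper panel, log axis, genes at 0 not drawn), summed over 22 heart and 24 striatum libraries, and the percent of 50-base windows in no other annotated transcript (lower panel), in the order of the genome. mt-Nd1, mt-Cytb and mt-Co1 stand highest in both tissues, and the run from mt-Ts1 to mt-Tg lies at or near 0.

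Mitochondrial genes took a larger share of gene counts in every heart library than in any striatum library. The share of gene counts in the untreated hearts was 46.0%, 44.2% and 23.7% in mutant mice and 30.1%, 41.9%, 41.4% and 17.7% in WT mice. With PTU it was 39.5%, 48.0% and 40.5% in mutant hearts and 26.2%, 34.96%, 34.4% and 36.6% in WT hearts. With PTU+TH it was 40.2%, 40.1%, 34.0% and 43.6% in mutant hearts and 30.3%, 35.2%, 33.4% and 32.7% in WT hearts. The untreated hearts of both genotypes spread over the widest range, so that both held a library below 25%. Mutant and WT hearts overlapped when untreated and with PTU+TH, and with PTU the lowest mutant library lay above the highest WT library. In bulk tissue, fewer cells of a type and less RNA per cell cannot be told apart.

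In striatum the share in mutant mice was 14.7%, 16.5%, 13.3% and 12.0% untreated, 12.8%, 12.6%, 12.4% and 13.3% with PTU, and 14.2%, 7.88%, 13.6% and 9.95% with PTU+TH. In WT striatum it was 12.4%, 12.8%, 13.8% and 11.5% untreated, 14.6%, 12.4%, 13.1% and 12.3% with PTU, and 11.8%, 14.2%, 13.5% and 10.8% with PTU+TH. Every striatum library but 2 mutant PTU+TH libraries lay between 10.8% and 16.5%, and all 6 groups overlapped.

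**Figure D2:**
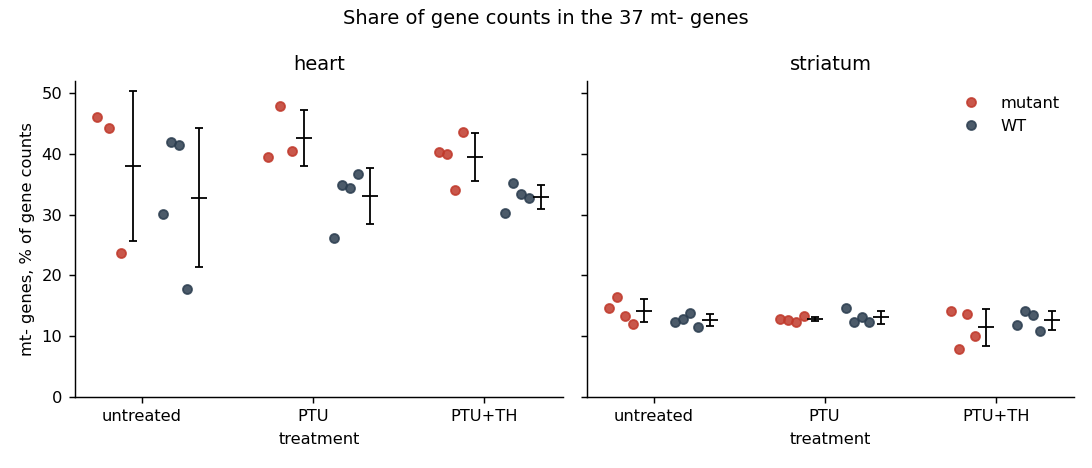
Share of gene counts on mt- genes in each library (percent, axis from 0), by genotype and treatment, with heart and striatum in separate panels, points for libraries and black bars for group mean ± SD. Every heart library lies above every striatum library, with the lowest heart library at 17.7% and the highest striatum library at 16.5%.

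No treatment or genotype difference in the share passed the exact two-sided permutation test, with p adjusted over 15 comparisons in each tissue. Over all treatments the share was higher in mutant than in WT hearts by 7.14 percentage points (exact permutation p = 0.0368, adjusted p = 0.276), or by 6.10 points without mutant untreated replicate 2, the library described below (adjusted p = 0.605). With PTU the mean was 42.7% ± 4.62 in mutant hearts (SD, n = 3) and 33.1% ± 4.66 in WT hearts (SD, n = 4), a difference of 9.61 points (exact permutation p = 0.0286, adjusted p = 0.276), where 0.0286 is the smallest p that 3 against 4 libraries allow. After adjustment over 15 comparisons such a p could pass only if many other comparisons were as low, so the test could hardly decide there. With PTU+TH it was 39.5% ± 3.98 in mutant and 32.9% ± 2.03 in WT hearts (SD, n = 4 each), and untreated it was 38.0% ± 12.4 in mutant (n = 3) and 32.8% ± 11.4 in WT hearts (n = 4). Averaged over genotypes, the difference was 2.46 points for PTU minus untreated hearts, or 4.02 without that library, and -1.66 points for PTU+TH minus PTU hearts (adjusted p = 1 for PTU). In striatum the same genotype difference was 0.0145 points (exact permutation, adjusted p = 1), and averaged over genotypes the treatment differences ran from -1.38 to -0.449 points (adjusted p = 0.771 each).

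Untreated WT hearts and striatum had different mean shares of mitochondrial counts and of the rRNAs and tRNAs within them, without passing the test. Heart had a mean share of 32.8% of gene counts against 12.6% in striatum, without overlap. Within the mitochondrial total, rRNA took 8.93% in heart against 14.2% in striatum, and tRNA took 0.201% in heart against 0.767% in striatum. The rRNA shares overlapped, with heart replicate 1 at 12.80% and striatum replicate 2 at 12.69%. The exact permutation p was 0.0286 for the share and the tRNAs, which is the smallest that 4 against 4 libraries allow, and 0.0571 for the rRNAs (exact permutation, adjusted p of 0.0571 and 0.0762 over 4 measures). None passed after adjustment, and the share and the tRNAs could have passed only if a further measure had reached that smallest p too. Over all libraries the tRNA share ran from 0.129% to 0.298% in heart and from 0.442% to 1.21% in striatum, and did not overlap. The share of mt-Nd6 averaged 0.229% in heart and 0.220% in striatum (adjusted p = 0.971, exact permutation).

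1 heart library held a mitochondrial profile unlike the others. In heart mutant untreated replicate 2, mt-Nd6 had 251419 counts, or 17.4% of mt- counts (exact binomial 95% interval 17.3% to 17.4%, counting error only). The other 2 mutant untreated hearts held 0.0715% and 0.976%. The WT untreated hearts held 0.259%, 0.0556%, 0.0514% and 0.552%. In the remaining hearts the share ran from 0.0424% to 0.115%, so that the 4 highest of the 22 were all untreated hearts. The second and the third highest, 0.976% and 0.552%, were the hearts with the lowest mitochondrial shares of gene counts, 23.7% and 17.7%. The part of those shares in the mt-Nd6 values was not tested.

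In the same library mt-Nd5, whose end overlaps mt-Nd6, had 795129 counts, or 55.0% of mt- counts, against 6.62% to 16.4% in the other 21 hearts. The remaining genes were then set against the mitochondrial total without mt-Nd5 and mt-Nd6. mt-Nd2 took 26.0% of that rest, against 10.5% to 15.2% in the other hearts, and mt-Nd4 took 22.8%, against 7.32% to 13.4%. mt-Co1 took 8.89%, against 13.9% to 29.4%, and mt-Cytb 13.8%, against 20.0% to 26.9%. mt-Nd1, at 20.8%, lay within the 18.7% to 22.3% of the others, so the library differed from the others in more genes than the overlapping pair.

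Several other measures of this library stood apart. Reads on no annotated gene made up 23.9% of its lines, against 2.40% to 5.63% in the other hearts. Gm11408, a copy of mt-Nd6 at 93.6% identity on chromosome 4, had 127 counts there, with a median of 3 over all hearts. Its heart muscle list summed to 97926 CPM, the highest of the hearts, its macrophage list to 214 CPM, against 37.8 to 112 in the others, and its mitochondrial genes had 1.45 M counts. The part of these in its mitochondrial profile was not tested.

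**Figure D3:**
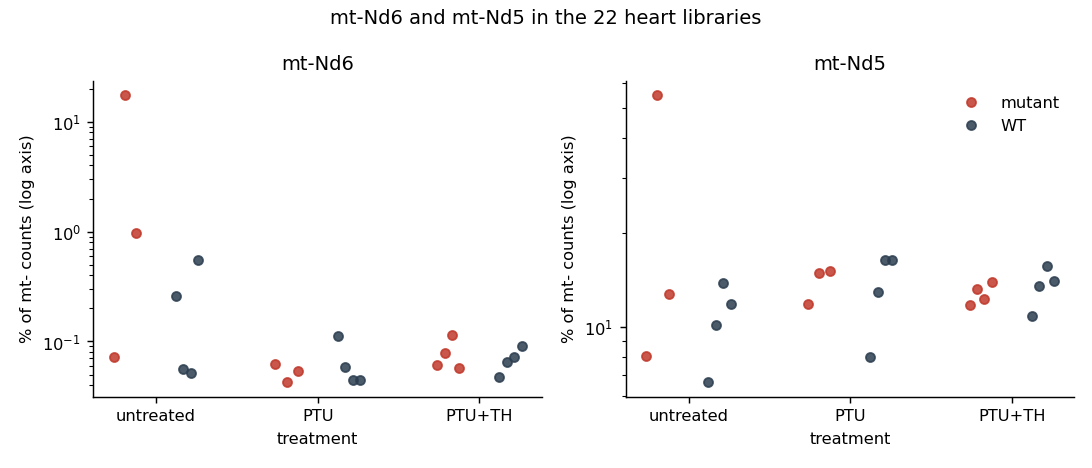
Percent of mt- counts on mt-Nd6 and on mt-Nd5 (log axes) in each of the 22 heart libraries, as points, by treatment and genotype. Heart mutant untreated replicate 2 stands alone at 17.4% and 55.0%, while all other hearts lie at or below 0.976% for mt-Nd6.

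mt-Nd6 and mt-Ti fell with PTU in heart and several other tRNAs rose, while the 6 protein genes of highest level did not pass the test. Averaged over genotypes, 9 of the 29 mitochondrial genes with enough counts to test in heart were called with PTU against untreated, by edgeR's quasi-likelihood test with p adjusted by Benjamini-Hochberg over 14156 genes and called under 0.05. Of all genes tested, 18.8% were called, a lower share than 9 of 29. Higher with PTU were the tRNAs mt-Tl1, mt-Tm, mt-Tr and mt-Tl2, and lower were mt-Ti, mt-Tq, mt-Te, mt-Tp and mt-Nd6. Without heart mutant untreated replicate 2, 6 members were called against a background of 11.1%, with mt-Tf, mt-Tv, mt-Tr and mt-Tl2 higher and mt-Ti and mt-Nd6 lower. The calls of mt-Tq, mt-Te and mt-Tp were lost without that library, with adjusted p of 0.442, 0.131 and 0.332, and those of mt-Tl1 and mt-Tm with 0.0869 and 0.066. None of the 6 protein genes of highest level and neither rRNA was called in either set.

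mt-Nd6 levels, scaled by TMM factors, were 244.3, 243.3 and 224.2 CPM in mutant PTU hearts and 249.7, 188.2, 148.3 and 162.5 CPM in WT PTU hearts. Untreated, they were 370.4, 98297 and 1986 CPM in mutant hearts and 772.9, 252.8, 234.8 and 802.9 CPM in WT hearts. The PTU range reached into the untreated range only between 234.8 and 249.7 CPM. mt-Nd6 fell with PTU by 4.30 ± 0.726 on the log2 scale (SE, edgeR, adjusted p = 0.000479), and by 1.88 ± 0.331 without replicate 2 of the mutant untreated hearts (adjusted p = 0.00106). The size of the change depended on that library, and the edgeR call did not. As a share of mt- counts the difference did not pass. Without that library it was -0.318 points (exact permutation p = 0.0329, adjusted p = 0.153). Leaving out single libraries gave adjusted p of 0.0578 to 0.662 by the same test. In that share WT untreated replicates 2 and 3, at 0.0556% and 0.0514%, lay within the WT PTU range of 0.0444% to 0.111%.

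mt-Tl2, a leucine tRNA, had 15.9, 42.5 and 26.7 CPM in mutant PTU hearts and 10.6, 16.6, 10.9 and 15.1 CPM in WT PTU hearts. Untreated, it had 3.95, 30.9 and 2.81 CPM in mutant hearts and 3.01, 1.95, 7.34 and 1.61 CPM in WT hearts. Leaving aside the untreated library at 30.9 CPM, which was again mutant untreated replicate 2, no PTU library overlapped the untreated ones. mt-Tl2 rose by 1.67 ± 0.436 with PTU (edgeR, adjusted p = 0.0116), and by 2.47 ± 0.374 without that library (adjusted p = 0.000281).

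mt-Tr, the arginine tRNA beside mt-Nd3, rose by 2.05 ± 0.515 with PTU (edgeR, adjusted p = 0.009) and by 1.98 without that library (adjusted p = 0.031). It ran from 36.03 to 206 CPM with PTU (median 86.7, n = 7) and from 4.06 to 91.0 CPM untreated (median 12.5, n = 7), so the ranges overlapped through WT untreated replicate 3. mt-Tv, the valine tRNA between the rRNA genes, was called without replicate 2 alone, at 0.75 (adjusted p = 0.00608), as was mt-Tf at 1.13 (adjusted p = 0.0091). Taken as a group, tRNAs made up 0.256% of heart mt- counts with PTU against 0.183% untreated, a difference of 0.0729 points (exact permutation p = 0.00143, adjusted p = 0.02 over 28 composition comparisons), and 0.0751 points without mutant untreated replicate 2 (adjusted p = 0.04). When mt-Nd5 and mt-Nd6 were left out of the total, an alternative chosen after seeing the data, that difference was 0.0190 points and did not pass. That step shrank the total most in mutant untreated replicate 2, where the genes held 55.0% and 17.4% of mt- counts. No value without that library is given for this alternative, so dependence on the total and on that library cannot be told apart here.

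By coding strand, 4 of 5 tested genes read from the strand of mt-Nd6 were called lower with PTU, with a median log2 change of -1.73, and 5 of 24 read from the other strand were called, 4 higher and 1 lower. Without mutant untreated replicate 2 these were 1 of 5, with a median of -0.327, and 5 of 24, so the count on the strand of mt-Nd6 turned on that library. Of all genes tested, 18.8% were called, or 11.1% without that library, and the same shares apply to the cell type lists below. The strand setting of the counting is not given in the sources used here, so counts of genes that share bases on opposite strands, such as mt-Nd5 with mt-Nd6 and mt-Ti with mt-Tq, are uncertain. Cell type lists moved with PTU as well: 5 of 6 macrophage genes fell, with and without that library, and 6 of 6 blood genes fell, 2 of them without it. The macrophage list summed to 37.8 to 57.4 CPM with PTU and 75.0 to 214 CPM untreated, and the blood list to 211 to 1100 and 936 to 2760 CPM. Of the heart muscle genes 3 of 8 fell, and of 6 atrial genes 3 rose, or 1 without that library. Without that library 3 of 6 fibroblast genes fell too, and each remaining list held at most 1 call in either direction. The part of these cell types in the mitochondrial changes was not tested.

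**Figure D4:**
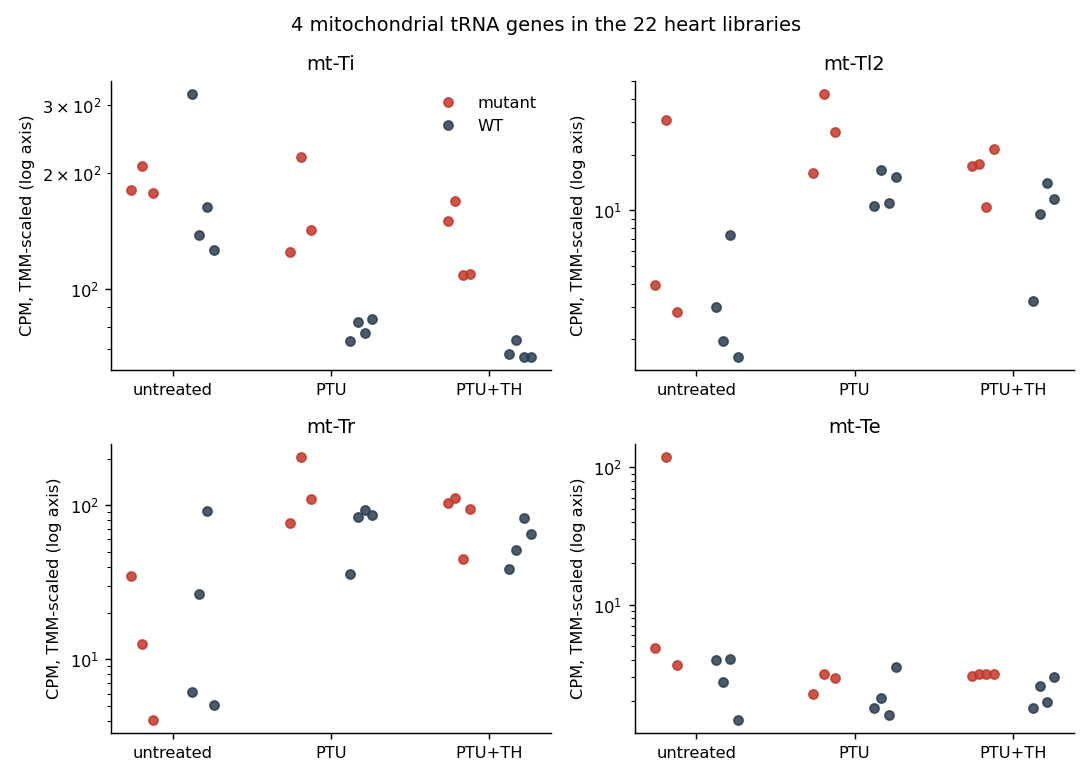
TMM-scaled CPM (log axis) of the tRNA genes mt-Ti, mt-Tl2, mt-Tr and mt-Te in each heart library, as points, by treatment and genotype. mt-Ti lies between 73.2 and 83.7 CPM in WT PTU hearts and between 125 and 220 CPM in mutant PTU hearts, and mt-Tl2 is higher in every PTU heart than in any untreated heart except mutant untreated replicate 2.

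Calls with PTU were also made within each genotype. In mutant hearts 6 of 29 members were called (background 13.8%), with mt-Tm and mt-Tr higher and mt-Tq, mt-Nd6, mt-Te and mt-Tp lower, and in WT hearts 1 was called, mt-Ti (background 4.9%). Without mutant untreated replicate 2, 3 members were called in mutant hearts, mt-Tv, mt-Tl2 and mt-Nd6 (background 0.59%). In WT hearts 4 were then called, mt-Ti, mt-Tl2, mt-Nd6 and mt-Tp (background 5.68%). The genotype difference in the PTU response was called for 0 of 29 members (background 0.579%), with mt-Nd6 nearest at a log2 difference of -5.68 (edgeR, unadjusted p = 0.000334, adjusted p = 0.0528), or -0.84 without mutant untreated replicate 2 (adjusted p = 0.672), so the responses of the genotypes were not shown to differ.

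With PTU+TH against PTU, no mitochondrial gene passed the test in heart. The count was 0 of 29 in each genotype and on average, against backgrounds of 0.41% in mutant, 11.4% in WT and 11.6% on average. The smallest adjusted p on average was that of mt-Ts2, a serine tRNA, at a log2 change of -1.01 ± 0.372 (edgeR, unadjusted p = 0.0128, adjusted p = 0.085). DESeq2 called mt-Ts2 alone, in WT and on average. Without mutant untreated replicate 2, mt-Tv and mt-Ts2 were called lower on average (background 12.6%) and in WT (background 12.3%). In WT, mt-Tv changed by -0.91 (edgeR, adjusted p = 0.00281). That library is in neither group, but all heart groups share the fit's estimate of spread.

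Set against untreated hearts, PTU+TH hearts had 11 of 29 members called on average (background 24.1%), or 3 without mutant untreated replicate 2 (background 16.4%), namely mt-Ti, mt-Tl2 and mt-Nd6. The 11 were mt-Tl1, mt-Tm and mt-Tr, which rose, and mt-Ti, mt-Tq, mt-Co2, mt-Co3, mt-Ts2, mt-Nd6, mt-Te and mt-Tp, which fell. mt-Nd6 was 253.6, 326.0, 381.6 and 267.8 CPM in mutant PTU+TH hearts and 133.7, 218.5, 232.8 and 284.0 CPM in WT PTU+TH hearts. In mutant hearts these lay above the PTU levels, and in WT hearts they overlapped them. It was lower than in untreated hearts by a log2 change of -4.01 (edgeR, adjusted p = 0.000281), or -1.61 without the library (adjusted p = 0.00192). As a share of mt- counts, mt-Nd6 differed by -0.303 points without the library and did not pass (exact permutation, adjusted p = 0.19). In mutant hearts 7 of 29 were called (background 22%), the 6 called with PTU there and mt-Tl1, and in WT hearts mt-Ti was the 1 member called (background 2.03%). Without mutant untreated replicate 2, 3 were called in mutant hearts (background 8.15%), with mt-Tv and mt-Tl2 higher and mt-Nd6 lower, so that the calls of mt-Tl1, mt-Tq, mt-Tm, mt-Tr, mt-Te and mt-Tp were lost. In WT hearts 4 were then called (background 2.53%), all lower, mt-Ti, mt-Tv, mt-Ts2 and mt-Tp. The near-absent mt-Co2 and mt-Co3 were among the 11 called on average and not among the 3, and their counts in hearts were at most 118 and 90 per library.

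mt-Ti was higher in mutant than in WT hearts with PTU. Its levels were 180.7, 208.8 and 177.5 CPM in mutant untreated hearts against 320.0, 138.6, 163.4 and 126.4 CPM in WT untreated hearts. With PTU they were 124.7, 219.7 and 142.2 CPM in mutant hearts against 73.2, 82.1, 77.0 and 83.7 CPM in WT hearts. With PTU+TH they were 150.0, 169.6, 108.7 and 109.8 CPM in mutant hearts against 67.8, 73.8, 66.9 and 66.7 CPM in WT hearts. In CPM the genotypes overlapped when untreated, and did not overlap with PTU or with PTU+TH. As a share of mt- counts they overlapped at both of these treatments. With PTU, WT replicate 1 held 0.0327% and mutant replicate 1 held 0.0315%. With PTU+TH, WT replicate 1 held 0.0241% and mutant replicate 4 held 0.0233%.

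In WT hearts mt-Ti was lower with PTU by a log2 change of -1.24 ± 0.237 (edgeR, adjusted p = 0.00197) and with PTU+TH by -1.44 ± 0.238 (adjusted p = 0.00123), both against untreated, and both calls held without any single library. Between genotypes, mt-Ti was higher in mutant than in WT hearts with PTU by 1.04 ± 0.2504 (adjusted p = 0.0298), the 1 member of 29 called there (background 2.2%). Leaving out single libraries gave 0.77 to 1.20 with adjusted p of 0.00252 to 0.217, and the call was lost without WT PTU replicate 1, 2 or 3 or mutant PTU replicate 2. With PTU+TH the difference was 0.97 ± 0.236 (edgeR, unadjusted p = 0.000439, adjusted p = 0.151), where 0 of 29 members and 0.0141% of all genes were called. DESeq2 did call mt-Ti there, and no other member. Over all treatments mt-Ti was higher in mutant hearts by 0.67 ± 0.142 (adjusted p = 0.0342, background 0.502%), a call lost in 13 of 22 fits that left out a library and kept without mutant untreated replicate 2, at 0.65 (adjusted p = 0.0443). The genotype difference in the TH response was called for 0 of 29 members (background 0.29%), and that in the PTU response was not called for mt-Ti.

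mt-Nd6 was the other member called over all treatments, higher in mutant hearts by 2.29 ± 0.510 (edgeR, adjusted p = 0.0441), and this call was lost without mutant untreated replicate 2, at 0.68 (adjusted p = 0.186). In untreated hearts the mt-Nd6 difference was 6.02 ± 1.03 (unadjusted p = 6.34e-06, adjusted p = 0.0898), where edgeR called no gene at all (background 0%, with 823 genes at an unadjusted p below 0.05) and DESeq2 called 4 genes, mt-Nd6 among them. Without mutant untreated replicate 2 that difference was 1.19 (edgeR, adjusted p = 1).

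Most mitochondrial genes had higher values in mutant than in WT hearts after PTU and after PTU+TH, without passing the test. With PTU, 29 of 29 tested members had a positive log2 difference of mutant over WT, with a median of 0.44, against -0.02 over all genes tested, and with PTU+TH 29 of 29 with a median of 0.55, against -0.01. Untreated, 17 of 29 were positive with a median of 0.14, and 9 of 29 with a median of -0.11 without mutant untreated replicate 2, so the direction there turned on that library. Without it, 29 of 29 were still positive with PTU and with PTU+TH. RLE size factors and scaling without the mt- genes gave the same 29, 29 and 17, and a replicate block gave 28, 29 and 16. The members are cut from shared precursors and counted in the same libraries, so their directions are not independent, and 1 and 0 of them were called with PTU and PTU+TH. The same libraries held the higher mitochondrial shares described above.

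As a share of mt- counts, mt-Nd2 was higher in every mutant than in every WT heart with PTU and with PTU+TH. mt-Nd2 averaged 12.4% ± 0.355 in mutant PTU hearts (SD, n = 3) and 10.1% ± 0.291 in WT PTU hearts (SD, n = 4), and with PTU+TH 12.7% ± 0.510 in mutant and 11.1% ± 0.426 in WT hearts (SD, n = 4 each). mt-Cytb averaged 18.8% ± 0.251 in mutant PTU hearts (n = 3) and 20.8% ± 1.66 in WT PTU hearts (n = 4). mt-Co1 averaged 20.9% ± 0.717 in mutant PTU and 23.3% ± 2.55 in WT PTU hearts, and mt-Nd1 17.5% ± 0.891 and 16.9% ± 1.14, with SD over the same libraries. For these 3 genes the genotypes overlapped with PTU. These shares sum to a fixed total, so a higher mt-Nd2 share goes with lower shares elsewhere, and single-gene shares were not tested. In edgeR no protein gene but mt-Nd6 was called between genotypes.

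Within the protein total, complex III, read from mt-Cytb alone, held 20.4%, 19.9% and 20.0% of counts in mutant PTU hearts and 20.7%, 22.7%, 22.6% and 23.3% in WT PTU hearts. With PTU+TH it held 19.5%, 19.4%, 20.2% and 19.6% in mutant hearts and 25.1%, 21.7%, 20.8% and 21.6% in WT hearts. The mutant libraries lay below the WT libraries at both treatments without overlap. Over all treatments complex III was lower in mutant hearts, a difference of -3.70 points (18.4% against 22.1%, exact permutation, adjusted p = 0.0173 over the composition comparisons), and -1.76 points without mutant untreated replicate 2 (adjusted p = 0.08), where it held 3.90%. Complex I was higher in mutant hearts, at 61.0% against 54.4% (adjusted p = 0.0482), and by 2.52 points without that library (adjusted p = 0.157).

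**Figure D5:**
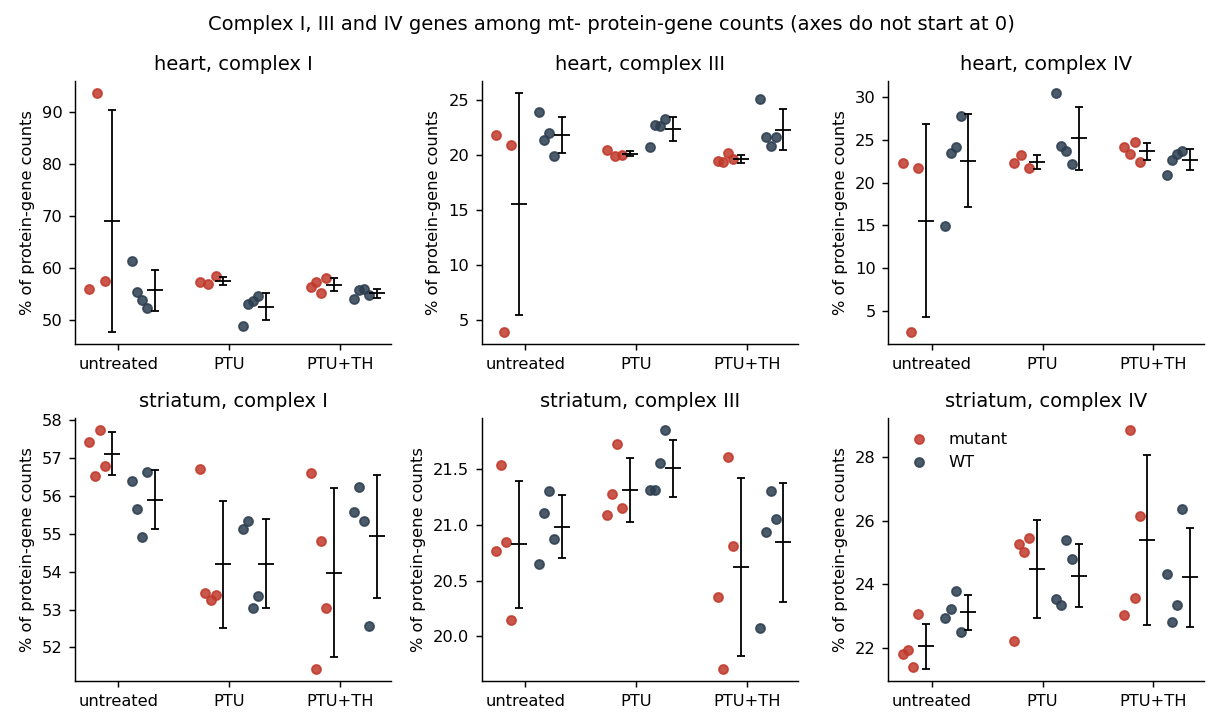
Percent of mt- protein counts on genes of complexes I, III and IV in each library, as points with group mean ± SD, by tissue, treatment and genotype, on axes that do not start at 0. In PTU and PTU+TH hearts every mutant library lies below every WT library for complex III, and heart mutant untreated replicate 2 stands apart at 93.6% for complex I and 3.90% for complex III.

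The rRNAs spread most widely between libraries in the untreated hearts of both genotypes and in WT PTU hearts. In hearts they took 7.41%, 1.87% and 4.48% of mt- counts in mutant untreated, 6.48%, 6.63% and 6.36% in mutant PTU and 7.22%, 6.33%, 6.76% and 5.33% in mutant PTU+TH libraries. In WT hearts they took 12.8%, 7.28%, 5.56% and 10.1% untreated, 11.2%, 6.08%, 4.85% and 4.83% with PTU, and 4.09%, 4.43%, 3.99% and 5.21% with PTU+TH. All WT PTU+TH hearts lay below all mutant PTU+TH hearts, the other treatments overlapped, and neither rRNA gene was called in any of the 15 heart comparisons.

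In striatum no mitochondrial gene was called in any comparison. Of the 37 genes, 25 had enough counts to test, 8 of them protein genes, 15 tRNAs and 2 rRNAs, and 0 passed in 15 comparisons. The backgrounds were 0% in all of these except WT PTU+TH against PTU with 0.459% and PTU against untreated over both genotypes with 0.0447% of 15670 genes. mt-Nd3 had the smallest unadjusted p over the comparisons, at -0.84 ± 0.288 for PTU+TH against untreated in mutant striatum (edgeR, unadjusted p = 0.00737, adjusted p = 0.997). Without passing the test, 24 of 25 members were lower with PTU+TH than untreated in mutant striatum, with a median log2 difference of -0.32, against 0.00 over all genes tested. In untreated striatum 21 of 25 were higher in mutant than in WT mice, with a median of 0.21, and both comparisons use the same mutant untreated libraries. mt-Nd6 in mutant striatum held 0.185%, 0.234%, 0.175% and 0.582% of mt- counts untreated, 0.180%, 0.192%, 0.403% and 0.354% with PTU, and 0.135%, 0.229%, 0.150% and 0.551% with PTU+TH. In WT striatum it held 0.218%, 0.212%, 0.241% and 0.209% untreated, 0.152%, 0.158%, 0.136% and 0.397% with PTU, and 0.151%, 0.258%, 0.182% and 0.695% with PTU+TH. Replicate 4 was the highest of its group in 4 of 6 groups, and no striatum library came near the 17.4% of the 1 heart library.

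The make-up of the striatal protein total moved by about 2 points with treatment and did not pass after adjustment. Complex I took 54.2% with PTU against 56.5% untreated, a difference of -2.30 points (exact permutation p = 0.00367, adjusted p = 0.08 over the composition comparisons), and complex IV, in effect mt-Co1, was 1.80 points higher (adjusted p = 0.08). Striatum libraries fell into 2 sets by reads on no annotated gene, 9 libraries at 4.46% to 6.03% of lines and 15 at 8.52% to 12.2%. Complex I within the lower set averaged 57.1% over 4 untreated libraries, 55.3% in the 1 PTU library and 55.0% over 4 PTU+TH libraries. Within the higher set it averaged 55.9% over 4 untreated, 54.0% over 7 PTU and 53.9% over 4 PTU+TH libraries. In the lower set the 1 PTU library lay within the PTU+TH range of 51.4% to 56.6%, whose lowest was mutant PTU+TH replicate 2. The part of the 2 sets in these differences was not tested.

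Part of the nuclear genes for the same complexes fell with PTU in heart. Of 29 nuclear subunits of complexes I, III, IV and V, 13 were lower and 0 higher with PTU (median -0.35), where 18.8% of all genes were called in either direction, or 7 lower without mutant untreated replicate 2, where 11.1% were. Cox7a1, the muscle form of a complex IV subunit, changed by -1.33 (edgeR, adjusted p = 0.000147), Uqcrq of complex III by -0.89, Ndufb8 of complex I by -0.82 and Cox5a of complex IV by -0.76. Without that library the calls of Uqcrq and Ndufb8 were lost, with adjusted p of 0.0525 and 0.0554. Of 9 regulators of mitochondrial content, 3 rose and 1 fell, or 3 and 0 without that library. Ppargc1a, a coactivator of mitochondrial genes, rose by 1.69 (adjusted p = 0.000343), Esrrg by 0.74 and Gabpa by 0.55, while Esrra, a nuclear receptor of the same programme, fell by 0.86, a call lost without that library (edgeR, adjusted p = 0.0949).

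Of 39 tested genes of the machinery that copies, transcribes and translates mitochondrial DNA, 2 rose and 5 fell with PTU, or 0 and 4 without that library, shares close to the 18.8% and 11.1% of all genes. Among them Polrmt, the mitochondrial RNA polymerase, fell by 0.54, Lonp1, a protease of the matrix, fell by 0.82, and Elac2, which cuts tRNA ends, fell by 0.44, while Fastkd1 rose by 0.42, a call lost without that library (edgeR, adjusted p = 0.0798). With PTU+TH against PTU, 6 rose and 0 fell with and without that library, where 11.6% and 12.6% of all genes were called, among them Supv3l1, an RNA helicase, at 0.44, Mtif2, a translation initiation factor, at 0.41, Polrmt at 0.41 and Mtpap, the poly(A) polymerase, at 0.43. Of the regulators, Ppargc1a fell by 1.06 in the same comparison (edgeR, adjusted p = 0.00751), Thra, a TH receptor, fell by 0.63, and Ppargc1b rose by 0.75. None of the 29 nuclear subunits was called with PTU+TH against PTU, and against untreated hearts 10 were lower and 0 higher (24.1% of all genes called), or 8 lower without mutant untreated replicate 2 (16.4%). Between genotypes over all treatments, 0 genes of these 3 lists were called in heart, or 1 without that library, Thra, at -0.51 (edgeR, adjusted p = 0.0367), and 0 were called in any comparison in striatum.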

How the data were processed

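Each deposited file holds the raw read counts of 1 library for 57010 genes, followed by 5 lines that name no gene and stayed out of library totals and tests. The authors aligned and counted with Bowtie2 and HTSeq on GRCm39, per the submitters' processing notes, which give no version. Neither the annotation release nor the strand setting, nor any use of molecular identifiers, is given in the sources used here. Lines for reads on no annotated gene and reads aligned to several places are shares of all lines of a file.

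Each tissue was fitted alone in edgeR 4.0.16 under R 4.3.3, with 1 coefficient per group, genes kept by filterByExpr with a minimum count of 10, TMM scaling and the two-sided quasi-likelihood F test. Calls were made under an adjusted p of 0.05, with adjustment over every gene of a comparison and 15 comparisons a tissue. CPM are counts per 1e+06 after TMM, and changes are log2 with their SE. Shares were compared by exact two-sided permutation over libraries, with labels permuted within treatment or genotype where both were pooled. Copies and windows of 50 bases came from blastn 2.17.0 and GENCODE M21 transcripts, and sequences from the same transcripts. The fitting code was tested on simulated data. Deviations of same-numbered libraries correlated weakly, with a median r of 0.0795 in heart and 0.0718 in striatum. For other numbers the medians were -0.0160 and -0.0345. Numbers were therefore not used to pair libraries, though single same-numbered pairs reached 0.598 in heart and 0.455 in striatum. All 37 members are accounted for, with every called member named, or that of smallest p where none was called, up to 4 called genes per nuclear list by size of change, and nuclear copies by count. Copies in the run on chromosome 1, Gm11408 and the shares of single protein genes were picked out after their values were seen. The members and lists were chosen with earlier results of these data known, and symbols of ATP synthase subunits were set to those in the files. Alternatives were DESeq2 1.42.0, RLE size factors, no filter, scaling without mt- genes, a replicate block, other denominators and leaving out each library.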

Additional observations from a re-analysis of the deposited data

Results flagged for a closer look

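Of 60 pairs of a measure and a group of 4 libraries examined for a library far from the rest, 4 held one, and chance flags about 1 in 20 such pairs. In striatum WT PTU replicate 4, mt-Nd6 held 0.397% of mt- counts, against 0.136% to 0.158% in the other 3. In striatum mutant untreated replicate 4 it held 0.582%, against 0.175% to 0.234%. mt-Ti was at 73.8 CPM in heart WT PTU+TH replicate 2, against 66.7 to 67.8 CPM in the other 3, and at 60.3 CPM in striatum mutant untreated replicate 2, against 36.6 to 38.3 CPM. Groups of 3 libraries, and so heart mutant untreated replicate 2, were not examined in this way.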

How the results depend on the processing

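RLE size factors and scaling without mt- genes kept the counts of called members within 1.5 times. Counts of heart members called moved as follows. Shares over all genes are not given, and counts over all genes follow for some of the comparisons. With DESeq2 they were 2 for WT PTU against untreated, and 1 each for WT PTU+TH against PTU, both genotypes PTU+TH against PTU, untreated mutant against WT, PTU+TH mutant against WT, and the genotype difference in the PTU response. With no filter they were, against untreated, 10 for mutant PTU, 9 for WT PTU, 15 for PTU in both, 12 for mutant PTU+TH and 13 for WT PTU+TH, then 3 for WT and 5 for both genotypes with PTU+TH against PTU. For mutant against WT they were 7 untreated, 4 with PTU, 2 with PTU+TH and 8 over all treatments, and 6 for the difference in PTU response. With a replicate block they were 2 for WT PTU, 4 for mutant PTU+TH against untreated and 1 for mutant against WT over all treatments, and the block moved no other count of members by over 1.5 times. Over all genes, mutant against WT hearts over all treatments gave 71 calls in edgeR, 245 in DESeq2 and 266 with no filter, and with PTU+TH 2, 113 and 39. Untreated mutant against WT hearts gave 0, 4 and 127 in the same order. Against untreated, WT PTU gave 694, 1004 and 1001, mutant PTU 1952, 2507 and 2001, and PTU in both 2666, 3137 and 2856. WT PTU+TH against untreated gave 288, 518 and 575, and mutant PTU+TH 3118, 3460 and 2787. More genes were tested with no filter.

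Leaving out each library gave 1 to 14 members called for mutant PTU, 1 to 5 for WT PTU, 3 to 17 for mutant PTU+TH, 1 to 4 for WT PTU+TH and 3 to 12 for PTU+TH in both, all against untreated. It gave 0 to 2 for PTU+TH against PTU in WT and in both. For mutant against WT it gave 0 to 4 untreated, 0 to 1 with PTU and 0 to 4 over all treatments, and 0 to 6 for the difference in PTU response. These counts too are given without a share over all genes. The mt-Tp change in mutant hearts ran from -2.39 to 0.33 with PTU and from -2.40 to 0.30 with PTU+TH, turning without untreated replicate 2. The heart share difference ran from -1.10 to 4.47 points with PTU and from -2.77 to 2.80 with PTU+TH against untreated. The genotype difference over all treatments ran from -0.293 to 0.407 in striatum. It ran from 2.52 to 8.81 for complex I and from -4.74 to -1.76 for complex III in heart. Complex V with PTU+TH against untreated hearts ran from -0.000844 to -0.000571 points. In striatum, against untreated, complex I ran from -2.72 to -2.11 with PTU and -2.49 to -1.63 with PTU+TH, complex IV from 1.61 to 2.18 and 1.65 to 2.62, and complex III from 0.392 to 0.625 with PTU, and from -0.845 to -0.527 for PTU+TH against PTU. The mt-Nd6 share of heart minus striatum ran from -0.0980 to 0.0688. Composition comparisons passing ran from 1 to 4 in heart and from 0 to 4 in striatum.

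Without mt-Nd5 and mt-Nd6 in the total, chosen after seeing the data, the heart tRNA difference was 0.0190 points with PTU and -0.00225 with PTU+TH, the complex I genotype difference was 5.71, and 1 comparison passed. These heart values include mutant untreated replicate 2, where mt-Nd5 and mt-Nd6 held 55.0% and 17.4% of mt- counts. In striatum complex I with PTU was -3.39, complex IV with PTU+TH was 2.67, and 2 passed. Without mt-Nd6, complex V with PTU+TH in heart was -0.000795. The striatal genotype difference in share was -0.00287 points without rRNAs and -0.0150 as a log2 ratio. Heart minus striatum was 11.2 points over all lines (exact permutation, unadjusted p = 0.0286). The cause of these moves was not tested. Counts near 0 limit complex V and 7 tRNAs.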
